A study of Homo sapiens with 120 samples.

Results

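Formaldehyde, a small aldehyde that crosslinks DNA to protein and DNA to DNA, was set against colcemid, a drug that binds tubulin and disturbs the mitotic spindle, by the difference between their effects on every gene after 24 h. The members are the 12 arrays, of 120 in the series, that this difference uses, 3 in each of 4 groups. They come from TK6 cells, an established human B lymphoblastoid line with wild-type p53, treated for 24 h with 200 µM formaldehyde or left untreated in the formaldehyde set, and treated for 24 h with the highest labelled dose of colcemid, 4 µg/ml, or left untreated in the colcemid set. The titles write the colcemid doses with leading zeros, so that a lost decimal point cannot be told apart from the dose as printed, and the doses are called lowest, middle and highest here. Each chemical was one set of 3 experiments with untreated arrays of its own, and the series held 3 doses and 2 times of each chemical as well as methyl methanesulfonate (MMS), ethyl methanesulfonate (EMS) and vincristine. The labels do not say whether the 3 experiments were separate cultures, so p-values measure a spread between arrays that may be technical. That spread was estimated over the 48 arrays of the 2 sets, all doses and both times, and not from these 12 alone. Of 13 B cell markers, 12 had a probe set and were tested, and 11 of them averaged at or above the brightness limit in the untreated arrays, CD79A, CD22 and PAX5 included.

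Expression is given as the deposited log2 signal of 1 probe set per gene, which is comparable between arrays but not between genes. An effect is the mean of the 3 treated arrays minus the mean of the 3 untreated arrays of the same set, and the difference is the formaldehyde effect minus the colcemid effect, so that a positive value means higher under formaldehyde. A value of 1 is a 2-fold change. A gene was called when its limma p-value, adjusted over all 14023 tested genes by Benjamini and Hochberg, was under 0.05. Precision is limited by the 3 arrays in a group. Of 98 named and called genes with 2 or more bright probe sets, 80 differed in the same direction on all of them, and GDF15, ATF3, BUB3 and IGHM were among the 18 that did not.

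DNA damage stabilises p53, which turns on genes that stop the cell cycle and start cell death, and through p21 (CDKN1A) it keeps repressor complexes on promoters of mitotic genes. A cell without a working spindle is held in mitosis by the spindle assembly checkpoint until cyclin B1 is destroyed, and can then leave mitosis undivided. Cells also sense free tubulin: when microtubules fall apart, the mRNAs of alpha- and beta-tubulin are broken down while they are translated. In bulk RNA a change in the share of cells in a phase of the cell cycle and a change in RNA per cell cannot be told apart.

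Of the 14023 genes, 4584 (32.7%) differed between the chemicals, 2372 (16.9%) higher and 2212 (15.8%) lower under formaldehyde. At least 2-fold differences were more often upward, with 177 higher and 80 lower. Against its own untreated arrays formaldehyde moved 7118 genes (50.8%), 25.3% up and 25.4% down. Colcemid moved 4715 (33.6%), 16.7% up and 16.9% down. The median difference over all tested genes was -0.02. Both chemicals moved 3636 genes. Of these, 3171 moved in the same direction, 1667 up (11.9%) and 1504 down (10.7%), and 1367 of the 3171 also differed in size, 1186 of them with the larger effect under formaldehyde and 181 under colcemid. The remaining 465 moved in opposite directions, 290 (2.07%) up under formaldehyde and down under colcemid and 175 (1.25%) the other way, and all 465 were called in the difference. The opposite count fell to between 284 and 295 when any 1 of the 3 colcemid experiments was left out. The untreated arrays of the 2 sets differed in 9 genes (0.0642%), among them HMGCS1, INSIG1, MSMO1 and HMOX1, which were named by rule, and ALDOC, AP1S1, BNIP3, CIRBP and NDRG1, which were named after their values were seen.

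**Figure D1:**
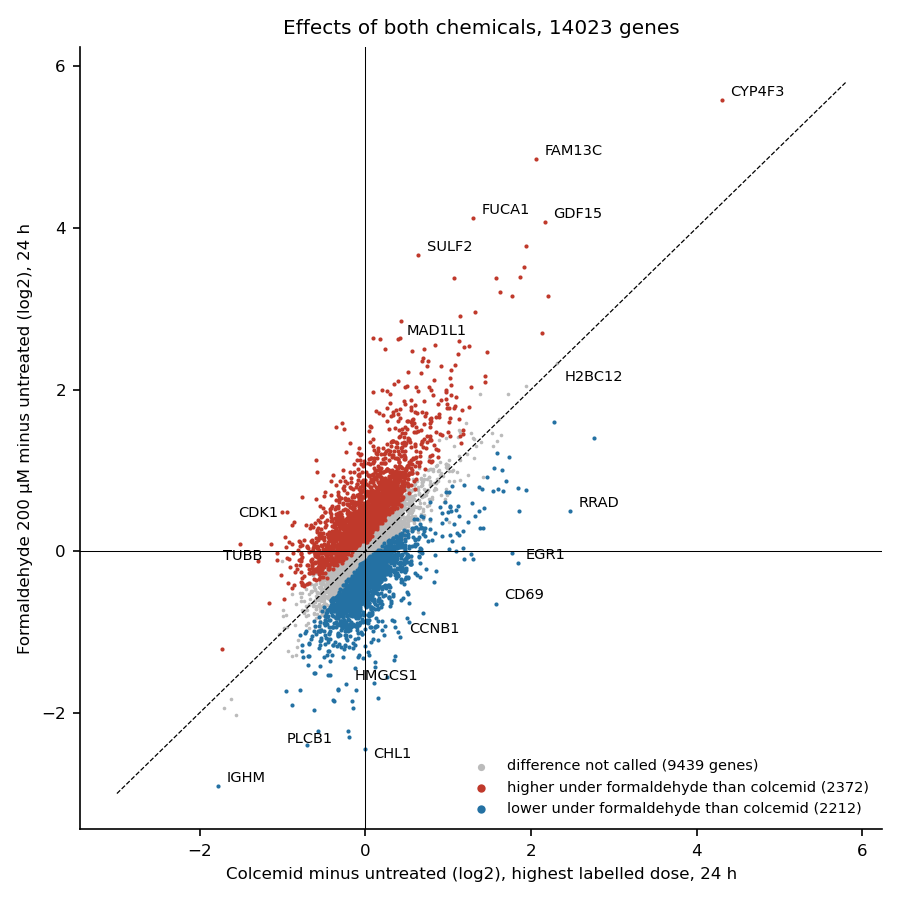
Effect of formaldehyde at 200 µM (vertical axis, log2, treated minus untreated) against the effect of colcemid at the highest labelled dose (horizontal axis, log2) for 14023 genes at 24 h, 1 point per gene. Red points (2372) were called higher and blue points (2212) lower under formaldehyde than colcemid, grey points were not called, and the dashed line marks equal effects. Most of the genes with large effects lie in the upper right and above the line, while EGR1, CD69 and RRAD lie far to the right of it.

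Most p53 targets rose under both chemicals, and the rise was larger under formaldehyde at 200 µM. Of 41 tested p53 targets, 37 rose under formaldehyde and 36 under colcemid, against 25.3% and 16.7% of all tested genes. None fell under either. In the difference 35 were higher, 6 were not called and none was lower, against 16.9% of all tested genes called higher. Their median effect was 1.41 under formaldehyde and 0.55 under colcemid, and their median difference was 0.64. The list was drawn up with earlier results of these data known, so its direction is not independent evidence. GDF15, a stress-induced secreted cytokine, had log2 signals of 11.95, 11.79 and 11.92 with formaldehyde against 7.74, 7.95 and 7.76 in its untreated arrays, and 10.05, 10.04 and 10.04 with colcemid against 7.76, 7.95 and 7.94 in its untreated arrays. All 3 formaldehyde arrays lay above all 3 colcemid arrays, which in turn lay above both untreated groups. Its difference was 1.90 ± 0.16 (SE, adjusted p = 3.35e-12). The cell cycle inhibitor CDKN1A rose by 1.93 under formaldehyde and by 1.04 under colcemid, a difference of 0.89 ± 0.075 (SE, adjusted p = 4.89e-12). PPM1D, the phosphatase that switches p53 signalling off, rose by 2.35 under formaldehyde and by 0.76 under colcemid. TP53INP1, a p53 cofactor in cell death, rose by 3.39 under formaldehyde and by 1.58 under colcemid. With 100 µM in place of 200 µM formaldehyde this turned round: none of the 41 was higher than under colcemid and 24 were lower, against 8.83% and 6.16% of all tested genes. Of 11 tested CDK inhibitors and growth arrest genes, 9 were higher in the difference and none was lower.

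The largest differences of all were increases under formaldehyde that were smaller or not called under colcemid. SULF2, a sulfatase that edits heparan sulfate outside the cell, had log2 signals of 9.79, 9.60 and 9.58 with formaldehyde against 5.69, 6.16 and 6.11 untreated, and 6.68, 6.74 and 6.70 with colcemid against 6.15, 6.11 and 5.94 untreated. The formaldehyde arrays stood far apart from the other 9, and the difference was 3.03 ± 0.16 (SE, adjusted p = 6.38e-17), which is 8.16-fold. SULF2 effects were 0.28, 0.59 and 3.67 at 50, 100 and 200 µM formaldehyde, and 1.47, 0.92 and 0.64 at the lowest, middle and highest colcemid dose. FUCA1, the lysosomal enzyme that removes fucose from glycoproteins, rose by 4.12 under formaldehyde and by 1.31 under colcemid. FAM13C rose by 4.85 under formaldehyde and by 2.06 under colcemid. Among the 15 largest positive differences, SCGB1D2, KRTAP19-1 and CLGN were called under formaldehyde (2.64, 2.63 and 1.97) and not under colcemid (0.09, 0.18 and 0.09), and their differences were 2.55, 2.45 and 1.88. These genes were dim: of the 12 signals 9, 10 and 12 lay under the brightness limit of 6.183, so the sizes of their differences are uncertain. The untreated signals of SULF2, FUCA1 and FAM13C also all lay under it. CEACAM1, a cell adhesion molecule of the immunoglobulin family, rose by 3.38 under formaldehyde and by 1.07 under colcemid. Of 24 tested lysosome and autophagy genes, FUCA1 among them, 12 were higher in the difference and 2 lower, against 16.9% and 15.8% of all tested genes.

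Tubulin genes went the other way round: colcemid lowered most of them, and the formaldehyde effects lay on both sides of 0. Of 9 tested alpha- and beta-tubulin genes, 7 were higher in the difference and none was lower, against 16.9% and 15.8% of all tested genes. Their median effect was -0.08 under formaldehyde and -0.52 under colcemid. Colcemid lowered 6 of the 9 and raised 2, against 16.9% and 16.7% of all tested genes. Formaldehyde lowered 3 and raised 3, against 25.4% and 25.3%. TUBB, a major beta-tubulin, had log2 signals of 13.30, 13.31 and 13.30 with formaldehyde against 13.39, 13.46 and 13.39 untreated, and 12.35, 12.29 and 12.30 with colcemid against 13.37, 13.41 and 13.36 untreated. The colcemid arrays stood about 1 log2 unit below the other 9. Its difference was 0.96 ± 0.042 (SE, adjusted p = 4.6e-19). The alpha-tubulin TUBA4A fell by 0.30 under formaldehyde and by 1.02 under colcemid. The beta-tubulin TUBB4B fell by 0.76 under colcemid, while its formaldehyde effect of -0.08 was not called (adjusted p = 0.0928). TUBA1A rose under both, by 0.78 and by 0.84, and its difference of -0.06 was not called, with a 95% interval from -0.21 to 0.09. TUBB2A, named after its values were seen, also rose under both, by 0.85 under formaldehyde and by 0.51 under colcemid. Of 10 gamma-, delta- and epsilon-tubulins and tubulin cofactors, 2 were higher and 2 lower, near the shares of all tested genes. Tubulin genes are near copies of each other, so a probe set may also bind RNA of a relative.

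The tubulin decrease was present at 4 h, when colcemid had moved few other genes. At 4 h colcemid lowered 16 of 14023 genes (0.114%) and raised 88 (0.628%), and 5 of the 16 were among the 9 alpha- and beta-tubulins. TUBB was at -0.15 with formaldehyde and at -0.18 with colcemid at 4 h, both called. TUBA4A was at 0.10 with formaldehyde and at -0.33 with colcemid at 4 h, and TUBB4B was at -0.09 with formaldehyde and at -0.26 with colcemid, all called. At 24 h TUBB effects were -0.05, -0.08 and -0.11 at 50, 100 and 200 µM formaldehyde, and -0.82, -0.95 and -1.07 at the lowest, middle and highest colcemid dose. Vincristine, the other tubulin-binding drug of the series, lowered 6 of the 9 tubulins at its highest dose, against 18.2% of all tested genes. Its TUBB effect was -1.39. MMS and EMS at their highest doses each lowered 7 of the 9, against 3884 and 3315 of all 14023 tested genes. Their TUBB effects were smaller, -0.47 and -0.29. The median effect over the 9 was -0.69 under vincristine and -0.26 under MMS and under EMS.

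**Figure D2:**
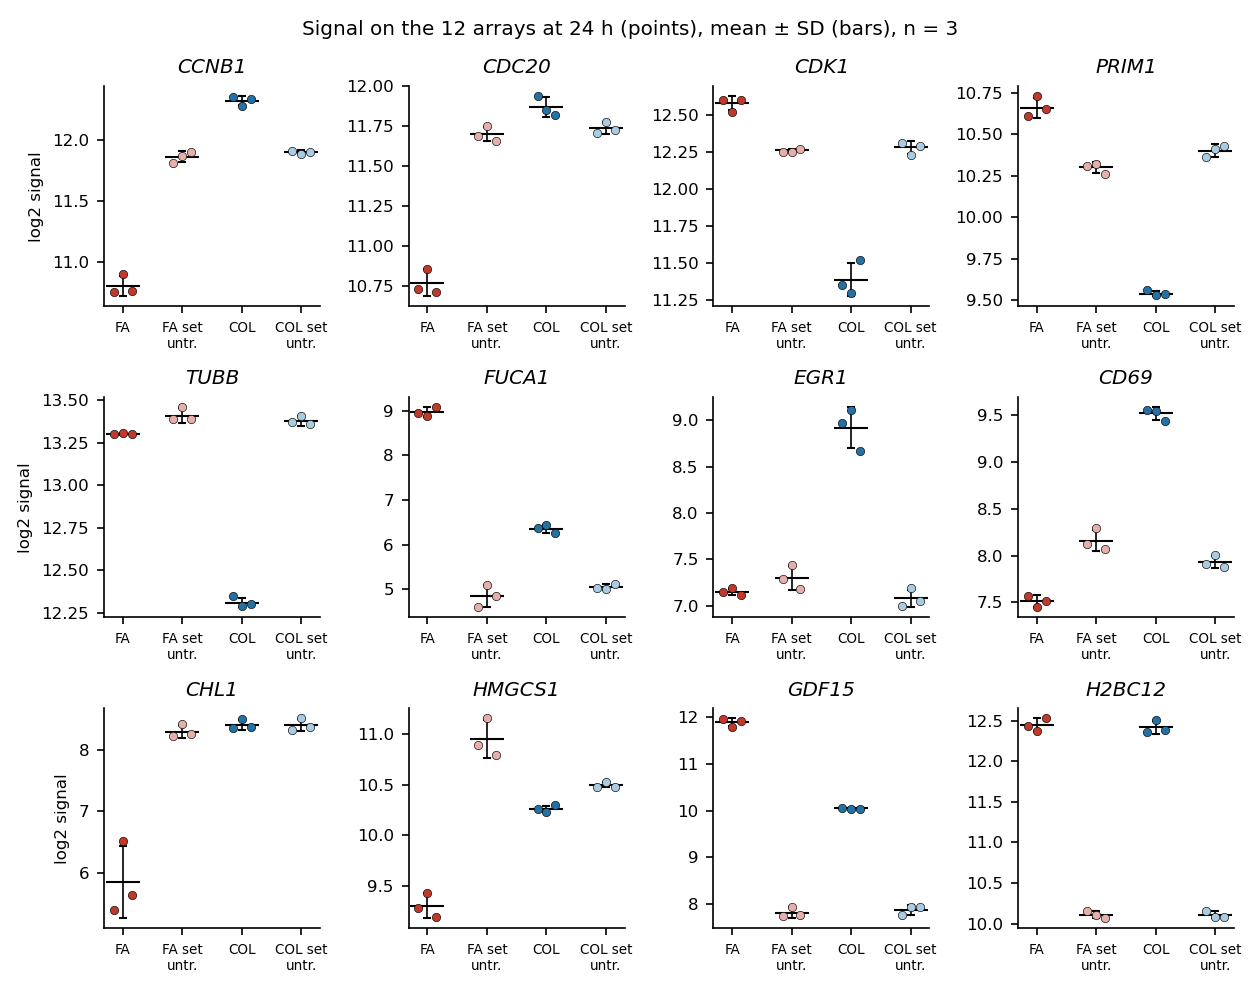
Log2 signal (vertical axes) of 12 genes on the 12 arrays at 24 h, 1 point per array, with the mean and SD of 3 arrays as bars; columns run formaldehyde (FA, 200 µM), its untreated arrays, colcemid (COL, highest labelled dose) and its untreated arrays. CCNB1, CDC20, CHL1 and HMGCS1 are lowest with formaldehyde, CDK1, PRIM1 and TUBB are lowest with colcemid, EGR1 and CD69 are highest with colcemid, and H2BC12 is raised alike by both.

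Genes of mitosis split in the difference. Of 30 tested, 18 were lower under formaldehyde than colcemid and 7 were higher, against 15.8% and 16.9% of all tested genes, with a median difference of -0.32. Formaldehyde lowered 19 and raised 5, against 25.4% and 25.3% of all tested genes. Colcemid lowered 10 and raised 6, against 16.9% and 16.7%. CCNB1, the cyclin that drives entry into mitosis, had log2 signals of 10.75, 10.90 and 10.76 with formaldehyde against 11.81, 11.87 and 11.90 untreated, and 12.35, 12.28 and 12.33 with colcemid against 11.91, 11.88 and 11.90 untreated. It was low on the formaldehyde arrays and high on the colcemid arrays, with no overlap with the untreated arrays on either side. The formaldehyde effect was -1.06 and the colcemid effect 0.42, a difference of -1.48 ± 0.09 (SE, adjusted p = 1.22e-15). CDC20, the activator of the anaphase-promoting complex that the checkpoint holds back, fell by 0.93 under formaldehyde, and its colcemid effect of 0.13 was not called, a difference of -1.06. AURKA, the kinase of the spindle poles, fell by 0.93 under formaldehyde, and its colcemid effect of 0.15 was not called, a difference of -1.07. PLK1, the kinase that builds the spindle and starts cytokinesis, fell by 0.58 under formaldehyde, and its colcemid effect of -0.04 was not called, a difference of -0.54. CDK1, the partner kinase of cyclin B1, moved the opposite way from it on the probe set used. Its log2 signals were 12.60, 12.52 and 12.60 with formaldehyde against 12.25, 12.25 and 12.27 untreated, and 11.35, 11.30 and 11.52 with colcemid against 12.31, 12.23 and 12.29 untreated. The difference of CDK1 was 1.21 ± 0.07 (SE, adjusted p = 3.34e-16). Other bright probe sets of CDK1 had colcemid effects of -1.08, -1.05 and -0.93 and formaldehyde effects of 0.06, 0.07 and -0.09. They shared its fall under colcemid and not the size of its rise under formaldehyde. In all, 4 mitosis genes rose under formaldehyde and fell under colcemid while 3 did the reverse, against 2.07% and 1.25% of all tested genes.

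The counts of mitosis genes under colcemid differed with its dose. With the middle colcemid dose in place of the highest, 10 mitosis genes were lower in the difference, against 13.8% of all tested genes. Colcemid lowered 25 of the 30 at the lowest dose, 23 at the middle and 10 at the highest, against 19.2%, 18.9% and 16.9% of all tested genes. CDC20 effects were -0.01, -0.08 and -0.93 at 50, 100 and 200 µM formaldehyde and -0.28, -0.15 and 0.13 at the lowest, middle and highest colcemid dose. CCNB1 effects were 0.05, 0.02 and -1.06 at the rising formaldehyde doses and -0.07, 0.09 and 0.42 at the rising colcemid doses.

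Among 18 tested spindle assembly checkpoint and kinetochore genes, 8 were higher and 5 lower in the difference, against 16.9% and 15.8% of all tested genes. The checkpoint kinase BUB1 fell by 1.10 under formaldehyde and by 0.22 under colcemid. BUB3, which carries BUB1 to kinetochores, had a formaldehyde effect of 0.08 that was not called and fell by 0.77 under colcemid. MAD1L1, the checkpoint protein that recruits MAD2 to unattached kinetochores, had log2 signals of 10, 10.21 and 10.18 with formaldehyde against 7.36, 7.60 and 7.56 untreated, and 7.99, 8.23 and 7.97 with colcemid against 7.62, 7.82 and 7.55 untreated. It was thus highest on the formaldehyde arrays, with a difference of 2.22 ± 0.14 (SE, adjusted p = 6.13e-15), and it rested on 1 probe set.

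Promoter sequence is shown for a few genes of these groups that hold motifs known for their control. In mitotic promoters these are the cell cycle homology region (CHR, letters TTTGAA or TTCGAA) and the CCAAT box (letters CCAAT). In replication promoters it is the E2F site (TTTCGCGC, TTTGGCGC, TTTCCCGC or TTTGCCGC). The genes shown are examples, at most 3 a group, picked from named and called genes with a match in the last 140 bases. TTCGAA reads the same on both strands, and matches to different motifs were counted separately even where they shared bases. Letters were searched on both strands in the 250 bases before each RefSeq gene start (GRCh38.p14), which was at hand for 11162 of the 14023 tested genes (79.6%). CHR letters stood in 13 of 26 mitosis promoters (50.0%), in 2 of 31 DNA replication promoters (6.45%) and in 10.4% of all 11162. Of the mitosis genes lower in the difference, 10 of 17 held them, and of those higher, 1 of 6. CCAAT letters stood in 22 of 26 mitosis promoters (84.6%) and in 34.7% of all. E2F letters stood in 12 of 31 replication promoters (38.7%), in 2 of 26 mitosis promoters (7.69%) and in 4.19% of all. Of the replication genes higher in the difference, 7 of 23 held them (30.4%), a smaller share than in the whole list, and of those lower, 1 of 2. A match is a description of letters and not a bound site. The next 3 stretches of RefSeq sequence end 1 base before the gene start and show the CHR and CCAAT letters of either strand in capitals, for CDC20 (chr1:43358841-43358980 on the plus strand), PRC1 (chr15:90994536-90994675 on the minus strand), which bundles microtubules between separating chromosomes, and PLK1 (chr16:23678749-23678888 on the plus strand), all lower in the difference.
CDC20: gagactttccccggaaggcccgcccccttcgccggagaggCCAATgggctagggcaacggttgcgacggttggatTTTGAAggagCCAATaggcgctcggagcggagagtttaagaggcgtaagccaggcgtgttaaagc
PRC1: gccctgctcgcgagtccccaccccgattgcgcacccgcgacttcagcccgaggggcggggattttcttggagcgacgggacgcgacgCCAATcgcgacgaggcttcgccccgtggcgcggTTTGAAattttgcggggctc
PLK1: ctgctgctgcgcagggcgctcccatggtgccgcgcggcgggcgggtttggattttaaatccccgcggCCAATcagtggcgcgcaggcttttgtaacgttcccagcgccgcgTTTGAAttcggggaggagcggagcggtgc
The CHR letters begin 65 bases before the start of CDC20, 20 before that of PRC1 and 29 before that of PLK1. The next 2 show E2F letters in capitals for CDT1 (chr16:88803649-88803788 on the plus strand), which loads the replicative helicase, and PCNA (chr20:5126623-5126762 on the minus strand), the sliding clamp of DNA polymerases, both higher in the difference. They begin 35 bases before the start of CDT1 and 59 before that of PCNA.
CDT1: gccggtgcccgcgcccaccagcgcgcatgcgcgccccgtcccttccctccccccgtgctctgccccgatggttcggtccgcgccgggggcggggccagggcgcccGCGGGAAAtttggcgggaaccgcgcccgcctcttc
PCNA: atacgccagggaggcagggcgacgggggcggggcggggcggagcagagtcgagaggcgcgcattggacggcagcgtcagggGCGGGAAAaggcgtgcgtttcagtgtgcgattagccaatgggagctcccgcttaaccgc

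DNA replication genes fell together under colcemid and were split under formaldehyde. Of 36 tested, colcemid lowered 33 and raised none, against 16.9% and 16.7% of all tested genes. Formaldehyde lowered 16 and raised 13, against 25.4% and 25.3%. In the difference 27 were higher and 2 lower, against 16.9% and 15.8% of all tested genes. Of the 36, 10 rose under formaldehyde while they fell under colcemid, against 2.07% of all. Their median effect was -0.07 under formaldehyde and -0.43 under colcemid. PRIM1, the catalytic subunit of primase, had log2 signals of 10.61, 10.73 and 10.65 with formaldehyde against 10.31, 10.32 and 10.26 untreated, and 9.56, 9.53 and 9.54 with colcemid against 10.36, 10.41 and 10.43 untreated. No array of any of the 2 treated groups overlapped its untreated arrays, and the difference was 1.22 ± 0.076 (SE, adjusted p = 1.86e-15). TK1, the thymidine kinase of S phase that gives the TK6 line its name, rose by 0.36 under formaldehyde and fell by 0.55 under colcemid. CDT1 rose by 0.21 under formaldehyde and fell by 0.47 under colcemid, and CDC6, its partner in helicase loading, fell by 0.63 under colcemid, with a formaldehyde effect of 0.04 that was not called. PCNA rose by 0.35 under formaldehyde, and its colcemid effect of -0.03 was not called. Of the same 36 genes, 31 fell under vincristine (18.2% of all tested genes fell), 31 rose under MMS (30.8% of all rose) and 24 rose under EMS (27.8% of all rose).

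The cyclins and factors that switch replication genes on and off were tested as a list of their own. Of 21 G1 cyclins and E2F factors, 12 were higher and 3 lower in the difference, against 16.9% and 15.8% of all tested genes, so only the higher count stood above the background. The repressor E2F7, itself a p53 target, had log2 signals of 11.32, 11.14 and 11.24 with formaldehyde against 9.58, 9.73 and 9.62 untreated, and 9.23, 9.30 and 9.21 with colcemid against 9.46, 9.61 and 9.52 untreated. Its difference of 1.87 ± 0.082 (SE, adjusted p = 4.6e-19) joined a rise under formaldehyde to a fall under colcemid. E2F8, its sister repressor, was first by rule among the genes that rose under formaldehyde (0.66) and fell under colcemid (-0.76). CCNE2, a cyclin of the start of S phase, rose by 0.49 under formaldehyde and fell by 1.01 under colcemid. E2F5 fell by 1.25 under formaldehyde, and its colcemid effect of 0.03 was not called. The chromatin assembly factor ASF1B, the growth-regulated factor TCF19 and the replication-linked protease FAM111A were also among the 6 leading opposite genes, with differences of 1.05, 1.56 and 1.71. Of 23 Fanconi and crosslink repair genes, 13 were higher and 2 lower, and BRIP1, the helicase that works with BRCA1, rose by 0.49 under formaldehyde and fell by 0.95 under colcemid. The other probe sets of CCNE2 and BRIP1 had colcemid effects of -1.35 and -0.96, but formaldehyde effects of only 0.01 and -0.03. ADH5, the enzyme that clears formaldehyde, had effects of -0.01 under formaldehyde and 0.05 under colcemid, neither called, and its difference of -0.06 had a 95% interval from -0.18 to 0.06.

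Some signalling genes rose under colcemid at 24 h and fell or were not called under formaldehyde. CD69, an early activation antigen of lymphocytes, had log2 signals of 7.57, 7.45 and 7.51 with formaldehyde against 8.12, 8.29 and 8.07 untreated, and 9.56, 9.55 and 9.44 with colcemid against 7.91, 8.01 and 7.88 untreated. It fell under formaldehyde and rose under colcemid, with a difference of -2.23 ± 0.14 (SE, adjusted p = 1.51e-15). EGR1, a growth-signal transcription factor, had log2 signals of 7.15, 7.19 and 7.12 with formaldehyde against 7.29, 7.44 and 7.18 untreated, and 8.97, 9.11 and 8.67 with colcemid against 7.0, 7.19 and 7.05 untreated. Only the colcemid arrays stood apart, and the difference was -1.99 ± 0.21 (SE, adjusted p = 1.02e-09). The promoter of EGR1 (chr5:138465339-138465478 on the plus strand) is known for its serum response elements. CArG boxes, the sites of serum response factor, are shown in capitals and begin 105 and 83 bases before its gene start. A match to the CArG box, CC and GG with only A or T between them, stood in 121 of the 11162 promoters (1.08%).
EGR1: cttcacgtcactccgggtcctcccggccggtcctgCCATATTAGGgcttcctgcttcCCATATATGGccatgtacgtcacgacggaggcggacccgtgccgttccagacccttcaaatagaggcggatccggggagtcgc
EGR3, a relative of EGR1, rose by 1.19 under colcemid, with a formaldehyde effect of -0.09 that was not called. DUSP2, a phosphatase that stops MAP kinases, fell by 0.30 under formaldehyde and rose by 0.62 under colcemid. Of 24 tested immediate early genes, 14 rose under formaldehyde and 20 under colcemid, against 25.3% and 16.7% of all tested genes. In the difference 4 were higher and 6 lower, against 16.9% and 15.8% of all, so as a list they stood near the background. RRAD, a small GTP-binding protein, rose by 0.49 under formaldehyde and by 2.47 under colcemid. ANTXR2, a receptor for collagen and anthrax toxin, had a formaldehyde effect of -0.03 that was not called and rose by 1.77 under colcemid, with 9 of its 12 signals under the brightness limit. At 4 h the order differed: EGR1 was at 2.09 with formaldehyde, which was called, and at 0.25 with colcemid, which was not, and CD69 was at 1.61 with formaldehyde and at 0.99 with colcemid, both called.

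**Figure D3:**
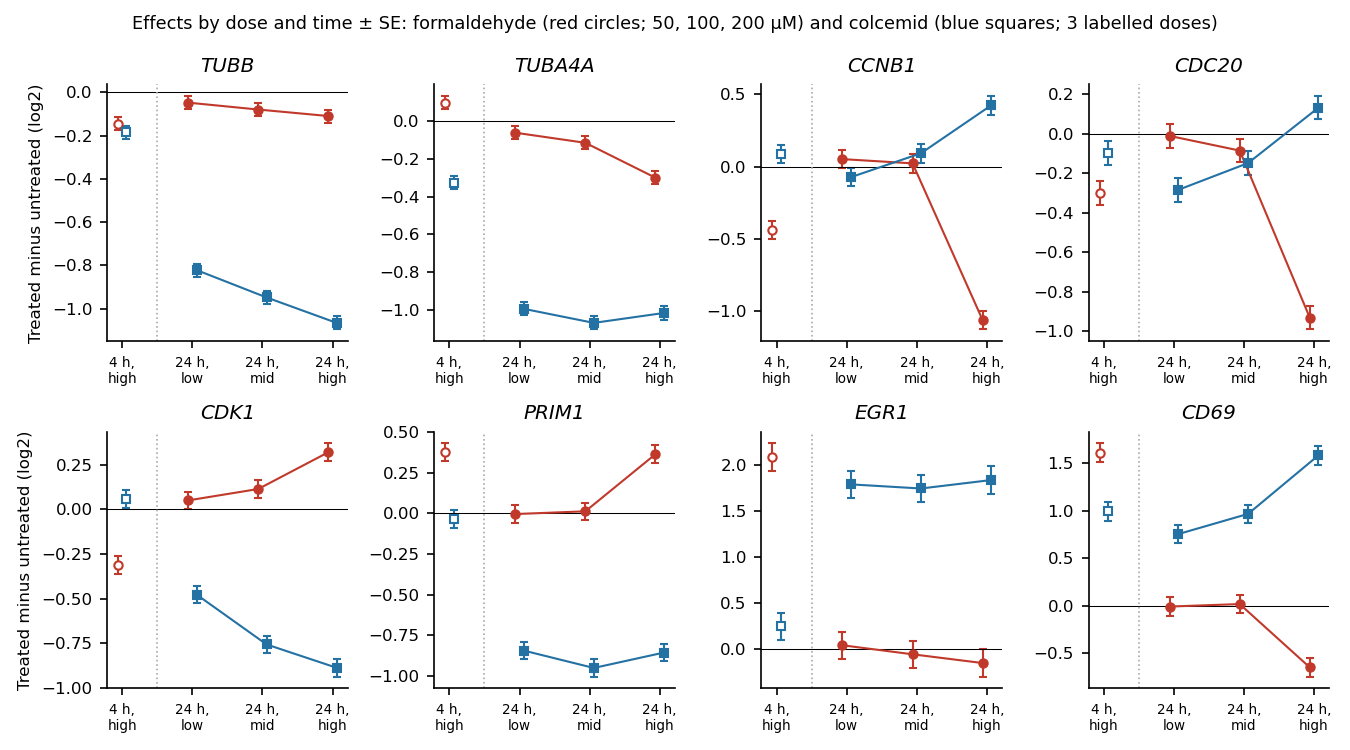
Effects (treated minus untreated, log2, vertical axes, with SE) of 8 genes at 4 h (open symbols, highest dose) and at 24 h (filled symbols) at 3 doses from low to high, for formaldehyde (red circles; 50, 100 and 200 µM) and colcemid (blue squares; 3 labelled doses). TUBB, TUBA4A, CDK1 and PRIM1 are already low at the lowest colcemid dose, whereas the formaldehyde effects on CCNB1, CDC20 and CD69 at 24 h are near 0 at 50 and 100 µM and negative at 200 µM.

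Most NF-kappaB targets rose under both chemicals. Of 22 tested, 18 rose under formaldehyde and 19 under colcemid, against 25.3% and 16.7% of all tested genes, and none fell. In the difference 4 were higher, near the 16.9% of all, and 8 were lower, against 15.8% of all. Of 21 interferon response genes, 10 rose under formaldehyde and 14 under colcemid, and 6 were lower and 2 higher in the difference. IFI44L, an interferon-induced antiviral protein, had log2 signals of 4.60, 4.81 and 4.74 with formaldehyde against 4.83, 4.61 and 4.82 untreated, and 6.12, 6.26 and 5.92 with colcemid against 4.52, 5.04 and 4.91 untreated. Its colcemid arrays alone stood apart, and 11 of its 12 signals lay under the brightness limit of 6.183, with a difference of -1.32 ± 0.28 (SE, adjusted p = 0.000228). IRF7, the regulator of interferon genes, went against its list and rose by 1.11 under formaldehyde, and its colcemid effect of 0.09 was not called. Of 8 tested genes of the metallothionein list, 7 rose under both, 5 were lower in the difference and 1 was higher. MT1X, a metal-binding metallothionein, rose by 0.25 under formaldehyde and by 0.71 under colcemid on the probe set used. Its other bright probe set had effects of -0.20 and 0.57. As with tubulins, a metallothionein probe set may also bind RNA of a relative. SLC30A1, the zinc exporter of the list, rose by 1.81 under formaldehyde and by 0.60 under colcemid.

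Metabolic programmes separated the chemicals. Of 28 tested genes of the ATF4 and amino acid response, 18 were higher and 2 lower in the difference, against 16.9% and 15.8% of all tested genes. Their median effect was 0.54 under formaldehyde and 0.03 under colcemid. DDIT3, a transcription factor of stress-induced cell death also called CHOP, had log2 signals of 10.78, 10.19 and 10.81 with formaldehyde against 8.24, 8.28 and 8.19 untreated, and 8.99, 8.90 and 8.91 with colcemid against 8.26, 8.32 and 8.16 untreated. It was high on all 6 treated arrays and highest with formaldehyde, with a difference of 1.67 ± 0.13 (SE, adjusted p = 1.44e-12). ATF3 rose by 3.21 under formaldehyde and by 1.62 under colcemid. SLC3A2, the heavy chain of amino acid transporters, rose by 1.08 under formaldehyde, and its colcemid effect of 0.05 was not called. SLC7A11, the cystine transporter named from the NRF2 and thiol defence list, rose by 0.56 under formaldehyde and by 1.02 under colcemid. Of 20 unfolded protein response genes, 3 were higher and 10 lower.

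Sterol and fatty acid synthesis genes were lower under formaldehyde. Of 22 tested, 19 were lower and 1 higher in the difference, against 15.8% and 16.9% of all tested genes. Their median effect was -0.86 under formaldehyde and -0.18 under colcemid. HMGCS1, the enzyme before the rate-limiting step of cholesterol synthesis, had log2 signals of 9.28, 9.43 and 9.19 with formaldehyde against 10.89, 11.16 and 10.79 untreated, and 10.26, 10.23 and 10.30 with colcemid against 10.48, 10.53 and 10.48 untreated. It was lowest on the formaldehyde arrays, with a difference of -1.41 ± 0.12 (SE, adjusted p = 6.94e-12). The untreated arrays of the formaldehyde set were themselves higher than those of the colcemid set for HMGCS1 by 0.45, for INSIG1 by 0.34 and for MSMO1 by 0.29, all called, and this gap is part of their differences of -1.41, -0.98 and -1.0. Of 28 hypoxia and glycolysis genes, 22 fell under formaldehyde and 18 under colcemid, against 25.4% and 16.9% of all tested genes. In the difference 13 were lower and 3 higher. LDHA, which makes lactate, fell by 0.79 under formaldehyde and by 0.17 under colcemid. Of 27 genes of oxidative phosphorylation, 13 were lower and 1 higher, and of 27 proteasome subunits 12 were lower and 1 higher, with median differences of -0.10 and -0.12. The proteasome count fell to 7 without the first colcemid experiment.

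**Figure D4:**
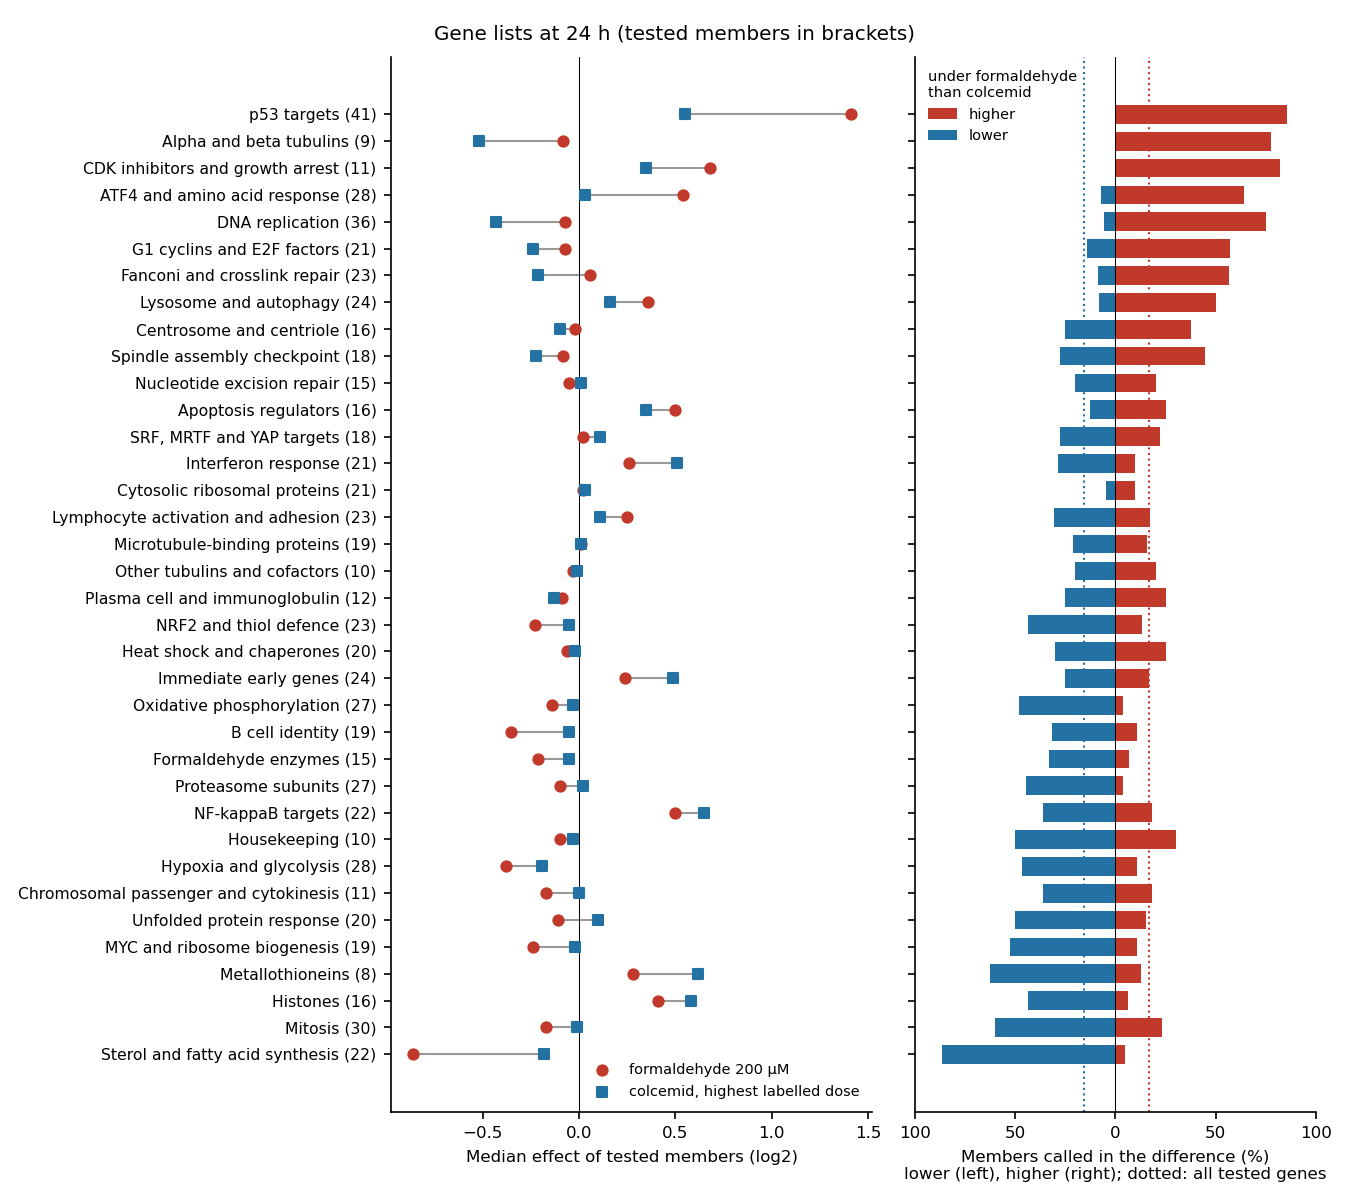
Gene lists with 8 or more tested members at 24 h, tested members in brackets, sorted by median difference. The left panel gives the median effect (log2) of formaldehyde at 200 µM (red circles) and of colcemid at the highest labelled dose (blue squares), and the right panel the percentage of members called higher (red) or lower (blue) under formaldehyde than colcemid, with the percentages over all tested genes dotted. p53 targets and alpha- and beta-tubulins stand at the top and sterol and mitosis genes at the bottom.

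Many of the genes with large negative differences were long. Of the 80 genes at least 2-fold lower under formaldehyde than colcemid, 42 (52.5%) were longer than 200 kb in RefSeq, against 882 (6.3%) of the tested genes with a length and 9 of the 177 genes at least 2-fold higher (5.08%). Their median length was 213 kb, against 26.1 kb over all tested genes. This description was added after the values were seen. PLCB1 (753 kb), a phospholipase C that signals from G-protein-coupled receptors, had log2 signals of 5.62, 6.25 and 5.50 with formaldehyde against 8.13, 8.07 and 8.07 untreated, and 8.02, 8.03 and 8.05 with colcemid against 8.24, 8.25 and 8.21 untreated. The formaldehyde arrays stood more than 1 log2 unit below the other 9, and the difference was -2.10 ± 0.18 (SE, adjusted p = 4.68e-12). CHL1 (213 kb), a neural cell adhesion molecule, had the largest negative difference of all, -2.45 ± 0.21 (SE, adjusted p = 1e-11). WWOX (1110 kb), an oxidoreductase gene that spans a common fragile site, fell by 1.55 under formaldehyde and rose by 0.27 under colcemid. KCNQ5 (577 kb, a potassium channel), CEP128 (483 kb, a centriole protein), VPS13B (864 kb, a lipid transfer protein of the Golgi), ANK2 (678 kb, a membrane adaptor) and SMYD3 (758 kb, a lysine methyltransferase) followed with differences between -2.01 and -1.66. At least 2 of the 3 formaldehyde signals of CHL1, PLCB1, KCNQ5, CEP128, VPS13B and ANK2 lay under the brightness limit. Other bright probe sets of CHL1, PLCB1, WWOX, CEP128, VPS13B and ANK2 gave smaller differences of the same direction, -0.15 for PLCB1, -0.15 for ANK2 and -0.51 for VPS13B.

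Over the whole table the difference leaned lower mainly in genes longer than 200 kb. By band up to 100 kb the median difference was -0.006, -0.007, 0.000 and -0.016. It was -0.041 from 100 to 200 kb, -0.097 from 200 to 500 kb and -0.108 above that. Among 721 genes of over 200 to 500 kb, 9.15% were higher and 27.7% lower in the difference, and among 161 longer genes 6.21% were higher and 28.0% lower, against 16.3% and 12.4% of 3513 genes up to 10 kb. In the band of 200 to 500 kb the median formaldehyde effect was -0.107 and the median colcemid effect 0.008. In genes longer than 500 kb these medians were -0.058 and 0.036, so the formaldehyde median was not lower there than in the shorter band. At 100 µM formaldehyde the median effect in the band of 200 to 500 kb was 0.028. Among genes brighter than the median the long ones had a median difference of -0.153 and the others of -0.013, and among the dimmer genes these were -0.079 and -0.008. A measure of RNA quality moved with formaldehyde in the same arrays. The 3' minus 5' signal of the ACTB control probe sets was 0.747, 0.712 and 0.846 with formaldehyde against 0.479, 0.458 and 0.506 untreated, and 0.487, 0.517 and 0.532 with colcemid against 0.558, 0.5 and 0.562 untreated. For GAPDH it averaged 0.223 with formaldehyde against 0.161 untreated, and 0.158 with colcemid against 0.135 untreated. Its part in the differences was not tested.

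**Figure D5:**
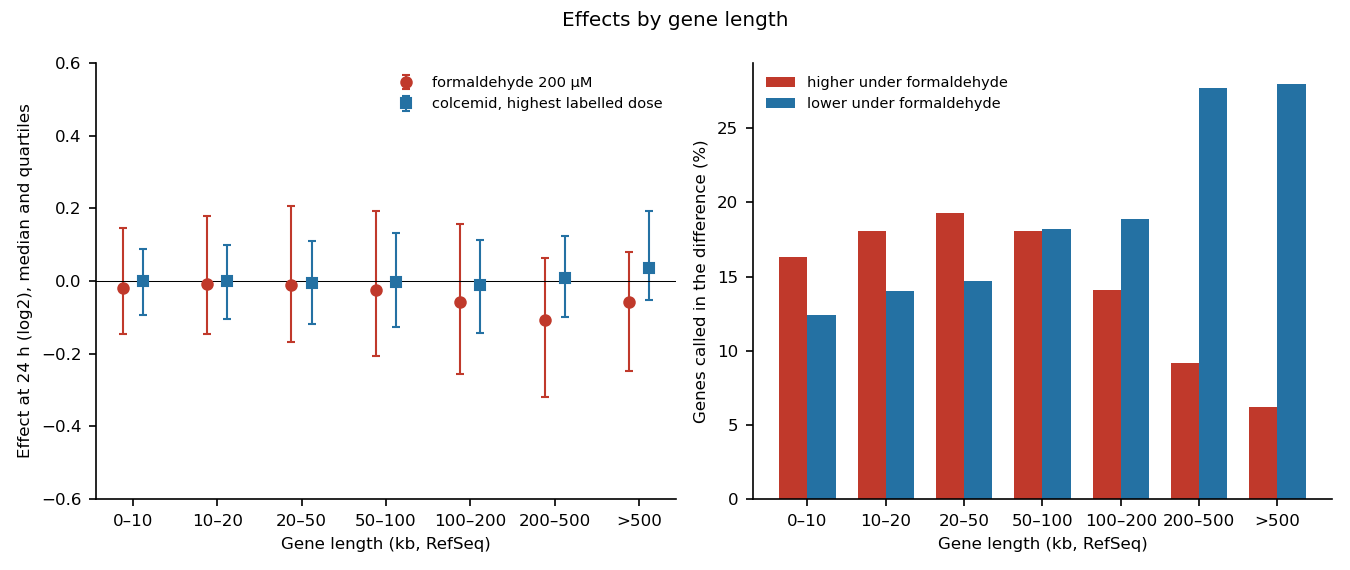
Effects at 24 h by RefSeq gene length in 7 bands (horizontal axes, kb). The left panel gives the median and quartiles of the effect (log2) of formaldehyde at 200 µM (red circles) and colcemid at the highest labelled dose (blue squares), and the right panel the percentage of genes called higher (red) or lower (blue) under formaldehyde than colcemid. The share called lower is 12.4% in genes up to 10 kb and 27.7% in genes of over 200 to 500 kb.

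Some large changes went the same way under both chemicals, with or without a difference in size. H2BC12, a histone H2B gene whose transcript can be polyadenylated, had log2 signals of 12.44, 12.37 and 12.53 with formaldehyde against 10.15, 10.11 and 10.07 untreated, and 12.36, 12.51 and 12.38 with colcemid against 10.16, 10.08 and 10.08 untreated. The 2 treated groups overlapped, and the difference of 0.02 was not called, with a 95% interval from -0.19 to 0.23. H2AC6, another histone gene, rose by 1.40 under formaldehyde and by 2.77 under colcemid. In the histone list 7 of 16 were lower in the difference, 1 was higher and 8 were not called, against 15.8% and 16.9% of all tested genes called lower and higher. That 7 fell to 4 without the first colcemid experiment, and histone probe sets may bind RNA of related histones. CYP4F3, a fatty acid hydroxylase, rose by 5.58 under formaldehyde and by 4.30 under colcemid, a difference of 1.28, and all 6 of its untreated signals lay under the brightness limit, so the sizes of both effects are uncertain. The immunoglobulin heavy chain gene IGHM fell by 2.90 under formaldehyde and by 1.78 under colcemid, a difference of -1.13. TNFRSF17, a receptor of antibody-producing B cells, fell by 1.21 under formaldehyde and by 1.73 under colcemid, a difference of 0.53. PDK1, a hypoxia-induced kinase that restrains pyruvate dehydrogenase, fell by 1.03 under formaldehyde and by 1.04 under colcemid, and its difference of 0.01 had a 95% interval from -0.19 to 0.20. Fewer markers of other blood cells and tissues were tested, but most of those tested were not dim. Of 11 T and NK cell markers 7 were tested, of 10 monocyte and granulocyte markers 4, of 11 epithelial and fibroblast markers 7 and of 9 red cell markers 4. In the untreated arrays 6, 3, 6 and 4 of these averaged at or above the brightness limit. Together 2 of these 22 were higher and 3 lower in the difference, no larger shares than the 16.9% and 15.8% of all tested genes. Of the 12 tested B cell markers 1 was higher and 5 were lower, and the share lower was above that 15.8%. The summed linear signal of the 4 tested monocyte and granulocyte markers ranged from 766.5 to 806.5 with formaldehyde against 368.6 to 412.5 untreated, and from 545.4 to 596.1 with colcemid against 395.9 to 451.5 untreated. ITGAM, an integrin subunit of myeloid cells, was the marker of the 4 that was called in the difference, with log2 means of 8.80 with formaldehyde against 5.84 untreated and 7.35 with colcemid against 6.02 untreated, while its other probe set had effects of -0.03 under both. The summed signal of the 4 tested red cell markers ranged from 717.5 to 753.4 with formaldehyde against 1481 to 1627 untreated, and from 957.3 to 1078 with colcemid against 1452 to 1493 untreated. Most of it was HBD, a globin gene named after its values were seen, with log2 means of 8.26 with formaldehyde against 9.98 untreated and 9.09 with colcemid against 9.88 untreated. The part of these markers in the differences was not tested.

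At 24 h formaldehyde moved 1 gene (0.00713%), 943 (6.72%) and 7118 at 50, 100 and 200 µM, whereas colcemid moved 4826 (34.4%), 4900 (34.9%) and 4715 at its lowest, middle and highest dose. With 100 µM in place of 200 µM formaldehyde, 2102 genes differed from colcemid and 36 moved in opposite directions. Of the 80 list counts in the difference, higher and lower for each of 40 lists, 60 then moved by more than 1.5 times. Most of the list counts given here thus belong to 200 µM and do not carry over to 100 µM. A moved count does not by itself say whether the direction of a list changed. At 4 h the difference between the highest doses held 6072 genes (43.3%), with 8043 (57.4%) moved by formaldehyde and 104 (0.742%) by colcemid. The p53 targets at 100 µM had a median effect of 0.37 and 33 of 41 rose (5.53% of all tested genes rose). At the lowest and at the middle colcemid dose 37 of 41 rose (15.2% and 16% of all), with medians of 0.79 and 0.70.

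Values under the other chemicals of the series, each against its own untreated arrays at its highest dose and 24 h, are given side by side with no test between them. CCNB1 was at 0.64 with vincristine, -1.45 with MMS and -0.56 with EMS, beside -1.06 with formaldehyde and 0.42 with colcemid. E2F7 was at -0.57 with vincristine, 2.61 with MMS and 2.09 with EMS, beside 1.59 with formaldehyde and -0.28 with colcemid. HMGCS1 was at -0.18 with vincristine, -1.69 with MMS and -1.74 with EMS, beside -1.65 with formaldehyde and -0.23 with colcemid. PLCB1 was at -0.25 with vincristine, -1.47 with MMS and -1.47 with EMS, beside -2.30 with formaldehyde and -0.20 with colcemid. EGR1 broke this order, at 1.36 with vincristine, 2.73 with MMS and 0.92 with EMS, beside -0.15 with formaldehyde and 1.84 with colcemid. ANTXR2 was at 0.07 with vincristine, which was not called, beside 1.77 with colcemid.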

How the data were processed

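Expression was measured on Affymetrix HG-U133 Plus 2 arrays. The deposited values are log2 signals, for which the submitters' processing notes name RMA, for 54675 probe sets on 120 arrays, with medians of 6.133 to 6.243 per array. They were used as deposited. Probe sets with a single gene symbol (41091) gave 19775 genes, each represented by its brightest probe set. The 14023 genes at or above a log2 signal of 6.183 on at least 3 arrays were tested. A gene bright only in 1 treated group passed through that group, so counts over tested members are not counts over whole lists.

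Limma 3.58.1 in R 4.3.3 was fitted to the 48 arrays of the formaldehyde and colcemid sets (16 groups), with Benjamini-Hochberg adjustment, and the fit was tested on simulated data. The titles number the experiments 1 to 3 within each set, and arrays of 1 number were read as 1 experiment from that wording alone. The fit behind the printed p-values has no block for it, and a fit with the block was an alternative. The data do not settle the pairing. Deviations of same-numbered treated and untreated arrays correlated at -0.0114 to 0.283 in the formaldehyde set, with a mean of 0.138. In the colcemid set they correlated at 0.0155 to 0.361, with a mean of 0.212, and 1 pair in each set was near 0. Arrays of other numbers correlated at -0.303 to 0.221 and at -0.369 to 0.233, so the ranges overlapped. Their means were -0.0696 and -0.107. Deviations within a group sum to 0, so these means are no independent contrast. Arrays of a group correlated at 0.9966 to 0.9985 over the tested genes. Over all 54675 probe sets the highest correlation between any 2 of the 120 arrays was 0.99835, and no 2 arrays held identical values. Named genes were the 15 largest differences each way, the 6 leading genes of each opposite direction and up to 4 genes per list, all called and with the same sign in all 9 pairings of experiments, and, without that condition, the 6 leading genes of each shared direction and a fixed panel. The members, the 40 lists and this rule were chosen with earlier results of these data known. Gene lengths and promoters came from RefSeq tables. Alternatives numbered 15.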

Additional observations from a re-analysis of the deposited data

Results flagged for a closer look

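The effect of treatment differed between formaldehyde and colcemid in 4584 of 14023 genes by limma's test of the difference itself, after Benjamini-Hochberg adjustment. Of these genes 2372 were higher and 2212 lower under formaldehyde. Among them, 465 genes were called under each chemical alone and moved in opposite directions. Of these, 290 went up under formaldehyde and down under colcemid, CDK1 and PRIM1 included. The other 175 went the other way, CCNB1 and CD69 included. The rise of CDK1 under formaldehyde rests on the probe set used. Its other bright probe sets had formaldehyde effects of 0.06, 0.07 and -0.09.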

How the results depend on the processing

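Of the 69 called genes named in the text, all 69 kept their direction and their call with experiment numbers as a block, with all 120 arrays or the 12 arrays alone, after a repeated quantile normalization, with no filter on dim genes, with a trend in the variance prior and without any 1 treated experiment, and so did all 67 that could be tested with the mean of probe sets. With the pairing as a block 5203 genes differed, 7622 changed under formaldehyde and 5285 under colcemid, 604 moved in opposite directions and 3539 in the same direction, and no call of these 69 genes was lost.

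With 100 µM in place of 200 µM formaldehyde, 2102 genes differed, 943 changed under formaldehyde and 36 moved in opposite directions, and 706 moved in the same direction. At that dose the difference changed sign for SULF2 (-0.05), FUCA1 (-0.29), FAM13C (-0.25), SCGB1D2 (-0.05), KRTAP19-1 (-0.05), CEACAM1 (-0.19), GDF15 (-0.69), CHL1 (0.07), PLCB1 (0.21), KCNQ5 (0.11), VPS13B (0.17), CYP4F3 (-2.82), IGHM (1.2), TP53INP1 (-0.46), PPM1D (-0.28), CDKN1A (-0.37), BUB1 (0.07), SLC30A1 (-0.50), DDIT3 (-0.35), ATF3 (-1.01), SLC3A2 (-0.04), HMGCS1 (0.15), LDHA (0.04), PLK1 (0.05), TUBB2A (-0.07), ITGAM (-0.49) and HBD (0.76), 27 genes in all. Only 9 of the 27 were called at 100 µM, namely GDF15, CYP4F3, IGHM, TP53INP1, CDKN1A, SLC30A1, ATF3, ITGAM and HBD, and the other 18 were not. A further 13 kept their direction and lost their call, 29 kept both, and the cause was not tested. Of 80 list counts, 60 moved by more than 1.5 times at 100 µM, 14 with the middle colcemid dose, 13 with the mean of probe sets, 9 with the 12 arrays alone, and 7 to 13 without 1 treated experiment, many of them counts of a few genes. With the middle colcemid dose the difference of TNFRSF17 changed sign (-0.21), 18 mitosis genes lower in the difference became 10 and 10 unfolded protein response genes became 6. Without 1 colcemid experiment 3646 to 3842 genes differed and 284 to 295 moved in opposite directions, and without 1 formaldehyde experiment 3978 to 4358 and 395 to 450. Without the first colcemid experiment 4 histones and 7 proteasome subunits were lower. Signals under the brightness limit make the sizes of differences uncertain for dim genes such as CLGN, KRTAP19-1 and IFI44L.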
